A study of Danio rerio with 7 samples.

Results

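The transcripts described here are the 150, of 51033 listed, that were strongly enriched in the dim cells of a fluorescence sort of adult zebrafish brain. A transcript was a member when it averaged at least 50 CPM (its estimated count scaled to the library's total) in the 3 GFP low libraries and at least 8 times its GFP high mean. Its TPM (a level that is also divided by transcript length) had to average under 1000 over the 7 libraries, and its estimated count had to round to 1 or more in at least 1 GFP high library. These thresholds use the measured difference between the groups, so the enrichment itself is a description and carries no test.

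All cells came from untreated 3-month-old transgenic gfap:GFP animals, in which the gfap promoter drives green fluorescent protein (GFP). The submitters label both groups as ependymoglial cells and separated them by GFP brightness into GFP high (4 libraries, replicates 1 to 4) and GFP low (3 libraries, replicates 3 to 5). RNA was amplified with a low-input cDNA kit and sequenced as paired reads of 100 bases. The labels do not say whether replicates are separate animals or how many animals were pooled, so p-values measure the spread between libraries, which may be technical.

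Ependymoglia are radial glia that persist in the adult fish brain, with their cell bodies along the ventricles. They keep processes that reach the outer surface, carry glial proteins such as the intermediate filament Gfap, and include the neural stem cells from which new neurons arise in the adult and after injury. By its title the series is about the aryl hydrocarbon receptor pathway, in which a transcription factor responds to bound ligands, and its part in restorative neurogenesis. The libraries here compare bright and dim reporter cells without injury. The files name transcripts by Ensembl identifier only, and 0 of the identifiers matched the gene tables used here. No member is therefore given a gene name or role, the labelled cell type was not checked against marker genes, and no sequence is shown. In bulk RNA of this kind, fewer cells of a type and less RNA per cell cannot be told apart.

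Library totals lay between 10629958 and 25545771 estimated counts. A count of 0 allows up to 0.117 to 0.149 CPM in the GFP high libraries and 0.138 to 0.282 CPM in the GFP low libraries (3 counts; counting error only). Between 37147 and 38989 transcripts had a count in each library.

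Of the 4025 transcripts at 50 CPM or more in GFP low, 153 reached 8 times the GFP high mean. The TPM ceiling left out 3 of these, at means of 1308, 4398 and 68180 TPM over the 7 libraries, and the demand for a count in GFP high left out none. The 3 members nearest the fold threshold stood at 8.01, 8.11 and 8.15 times, and the nearest transcripts outside it at 7.83, 7.75 and 7.62 times. The member nearest 50 CPM had a mean of 50.4 CPM and the nearest transcript below it 49.98 CPM. The members highest in TPM averaged 931 and 852 TPM over the 7 libraries. With the groups exchanged, the same rule chose 59 transcripts, called the mirror set below.

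**Figure D1:**
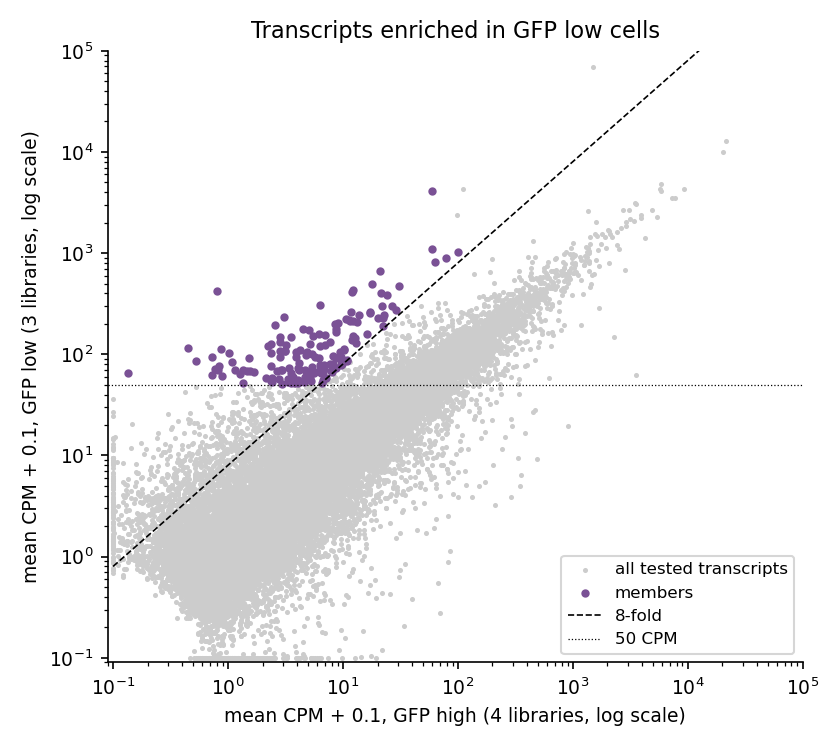
Mean CPM + 0.1 of each of the 33178 tested transcripts (grey) in GFP high (horizontal, log scale, mean of 4 libraries) and GFP low (vertical, log scale, mean of 3 libraries), with the 150 members in purple, a dashed line at 8-fold and a dotted line at 50 CPM. The members form the upper left edge, from 50.4 to 4094 CPM in GFP low and 0.0362 to 100.3 CPM in GFP high.

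The rule admits only transcripts at 50 CPM or more in GFP low, which 4025 of the 51033 listed reached. All members therefore took at least that share of reads in the dim cells on average, and the 8-fold threshold keeps the members lower in the bright cells. CPM is not divided by length, so a long member can be low in TPM. Their mean level in GFP low ran from 6.38 to 2110 TPM, with a median of 91.2 TPM, and in GFP high from 0.0219 to 120 TPM, with a median of 4.51 TPM. One transcript, left out of the list only by the TPM ceiling, held a large part of all TPM in GFP low. It averaged 69691 CPM in GFP low and 1501 CPM in GFP high, a ratio of 46.4. Taken alone, its reads lower the TPM and the CPM of every other transcript in GFP low. Under library size alone, the median log2 fold change (GFP low minus GFP high) of all tested transcripts was still 0.12. Folds in CPM were therefore not lowered on balance. In CPM, 80 members lay between 50 and 100 in GFP low, 39 between 100 and 200, 28 between 200 and 1000, and 3 above 1000. The ratio of the group means had a median of 18.4. It was under 10 for 17 members, from 10 to 16 for 45, from 16 to 32 for 47, from 32 to 64 for 23, and above 64 for 18.

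Together the members took 2.85%, 3.36% and 1.86% of the estimated counts in GFP low replicates 3 to 5. In GFP high replicates 1 to 4 they took 0.145%, 0.169%, 0.11% and 0.129%. The means were 2.69% ± 0.764 (SD, n = 3) and 0.138% ± 0.0247 (SD, n = 4). GFP low replicate 5 was the lowest of the dim libraries and GFP high replicate 3 the lowest of the bright ones. The mirror set took 0.0934%, 0.0623% and 0.0581% in GFP low replicates 3 to 5, so its share there was also lowest in replicate 5. A few members carried much of the sum: the 5 with the most reads made up 27.1% to 31.2% of the members' counts in the GFP low libraries and 24.1% to 27.9% in the GFP high libraries.

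**Figure D2:**
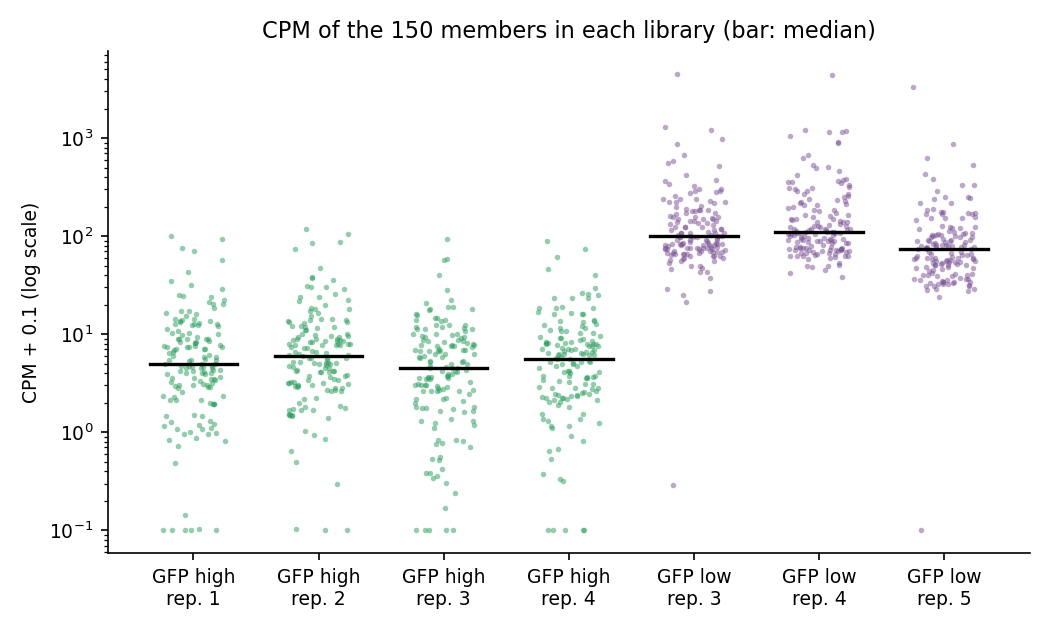
CPM + 0.1 (log scale) of the 150 members in each of the 7 libraries, 1 point per member, with a black bar at the median. The medians are 4.88, 5.92, 4.45 and 5.44 CPM in GFP high replicates 1 to 4 and 99.3, 110.2 and 73.3 CPM in GFP low replicates 3 to 5; the lone low points in GFP low replicates 3 and 5 are the same member, ENSDART00000130608.2.

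The member with the most reads was ENSDART00000010537.9, a transcript of 3590 bases. It stood at 4540, 4432 and 3310 CPM in GFP low replicates 3 to 5. In GFP high replicates 1 to 4 it stood at 69.6, 104.7, 18.0 and 46.5 CPM. The dim libraries lay close together and far above every bright one, while the bright libraries were more unequal, with replicate 3 lowest and replicate 2 highest. Its level was 1948 TPM ± 251 in GFP low (SD, n = 3) and 29.8 TPM ± 18.3 in GFP high (SD, n = 4), and it alone made up 13.2% to 17.8% of the members' counts in the dim libraries. Per length, a shorter member of 391 bases had a similar level, at 2021, 2465 and 1844 TPM in GFP low replicates 3 to 5. That transcript stood at 34.3, 69.4, 26.6 and 53.6 TPM in GFP high replicates 1 to 4, again highest in replicate 2 and lowest in replicate 3.

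The member with the largest ratio was ENSDART00000098822.4, of 3032 bases. It stood at 49.7, 41.7 and 105 CPM in GFP low replicates 3 to 5, and was 1 of only 5 members that were highest in replicate 5. In GFP high it had 3 counts in replicate 3 and 0 after rounding in replicates 1, 2 and 4. The counts of 2807 in GFP low and 3 in GFP high, over the pooled totals, give a ratio of 1927. The exact 95% interval of 659 to 9351 covers counting error only and makes no allowance for picking the member by its ratio. Its counts were not whole within a tolerance of 1e-06, so part of them were shared out between transcripts by the authors' quantifier.

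Each library was also left out of the choice in turn. The rule was applied to the other 6, and the ratio of GFP low to GFP high was then taken with the library left out standing alone for its group. The libraries of the other group had been used in the choice, so only one side of each ratio is independent of the rule and the values are given as a description. Of 127 transcripts chosen without GFP low replicate 4, 122 (96.1%) were at least 8 times the GFP high mean in that library, with a median ratio of 24.5. All 127 lay above every GFP high library there, as did 34.9% of all tested transcripts. Of 145 chosen without GFP low replicate 3, 134 (92.4%) reached 8 times there, with a median of 18.7, and 144 lay above every GFP high library, against 39.4% of all tested transcripts. GFP low replicate 5 was weaker. Of 179 chosen without it, 118 (65.9%) reached 8 times and 173 (96.6%) reached 4 times, with a median ratio of 10.3. Of these, 178 lay above every GFP high library, against 43.2% of all tested transcripts.

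The same was done for the bright libraries. The shares that stayed at 8 times or more in the GFP high library left out were 85.9% of 149 for replicate 1, 90.1% of 151 for replicate 2, 93.8% of 144 for replicate 3 and 96.6% of 149 for replicate 4. The median ratios were 19.5, 16.2, 22.7 and 19.6. In each of the 4 cases, 1 chosen transcript did not lie below every dim library in the library left out, and the others did. Over all tested transcripts, 35.8%, 37.5%, 33.7% and 36.1% lay below every dim library in GFP high replicates 1 to 4. Of the 150 members, 113 were chosen from all 7 libraries and also from every set of 6.

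**Figure D3:**
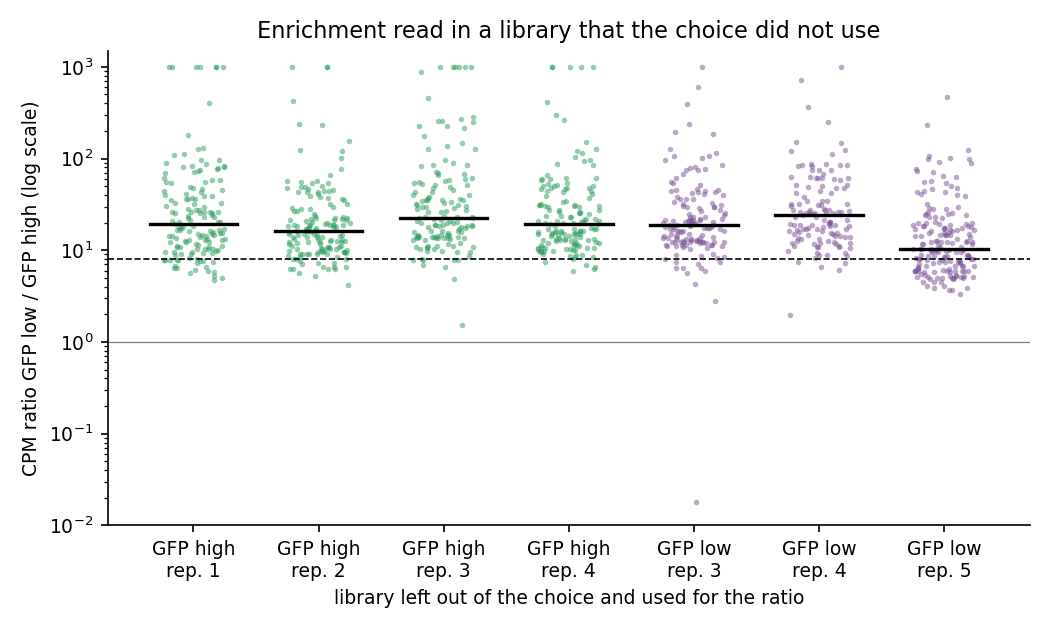
Ratio of GFP low to GFP high CPM (log scale) for transcripts chosen without the library named on the horizontal axis, read in that library against the mean of the other group. Black bars are medians (10.3 to 24.5), the dashed line is 8 and the grey line 1. Ratios above 1000, including those against a level of 0, are drawn at 1000, and 1 ratio of 0 in GFP low replicate 5 is not drawn.

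Taken within each dim library rather than over their mean, the list was smaller. At least 50 CPM and 8 times the GFP high mean were reached by 80 members in each of the 3 GFP low libraries. Both limits bore mainly on replicate 5: 109 members reached 50 CPM there, against 138 in replicate 3 and 144 in replicate 4, and 112 reached 8 times, against 146 and 148. The lowest dim library exceeded the highest bright library in 149 of the 150 members, and over all tested transcripts this held for 21.7%. The ratio between these 2 extremes had a median of 8.26, with quartiles of 5.34 and 13.8. In edgeR's quasi-likelihood test over all 33178 tested transcripts, 21.8% passed an adjusted p of 0.05 (false discovery rate of 5%), and 11.6% were called higher in GFP low. All 150 members were tested and 149 were called higher in GFP low. Because the rule used this contrast, nothing is read from that count. Their fitted log2 fold changes, GFP low minus GFP high, ran from 2.90 to 10.60 with a median of 4.1, against -0.0051 over all tested transcripts. The rule divides by library size alone, under which the median of all tested transcripts was 0.12, so its folds sit that much higher than scaled ones.

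The exception was ENSDART00000130608.2, of 614 bases, named here after its values were seen. It stood at 0.188, 666 and 0 CPM in GFP low replicates 3 to 5, with 2 counts in replicate 3 and none in replicate 5. In GFP high replicates 1 to 4 it stood at 2.80, 23.6, 1.73 and 13.9 CPM. A single dim library was far above every bright one, and the other two dim libraries were below all 4, so the groups overlap and the member rests on replicate 4. By edgeR's quasi-likelihood test its adjusted p was 0.177. Without GFP low replicate 4 its fitted log2 fold change turned to -7.02, with an adjusted p of 0.0448 by edgeR. That fitted value depends on the near absence of counts and is no measure of size.

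The dim libraries differed from each other in a pattern that most members had in common. GFP low replicate 5 was the lowest of the 3 in 125 members (83.3%), replicate 3 in 13 and replicate 4 in 12. Among all tested transcripts replicate 5 was lowest in 28.8%, and among those at 50 CPM or more in GFP low in 27.4%. The mirror set was lowest in replicate 5 in 52.5% of its transcripts. Replicate 4 was the highest in 86 members (57.3%) and replicate 3 in 59 (39.3%), against 28.3% and 31.4% of all tested transcripts. Replicate 5 was the highest in 5 members. It was the highest in 40.2% of all tested transcripts and in 49.0% of those at 50 CPM or more in GFP low. The 2 orders that end with replicate 5 held 74 members (replicate 4 first) and 51 members (replicate 3 first). Among all tested transcripts they held 15.6% and 14.7%. A member's mean was part of the rule, so a library with high values helped to choose members, but no order of the libraries was asked for. The coefficient of variation over the 3 dim libraries had a median of 32.7% in the members and 28.9% in all tested transcripts. It was 14.8% in tested transcripts at 50 CPM or more in GFP low. Library totals in GFP low replicates 3 to 5 were 10629958, 21796218 and 12994388 estimated counts, and their part in these differences was not tested.

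A small group stood apart in GFP low replicate 4. In 9 members replicate 4 was at least 3 times the mean of replicates 3 and 5. There were 15 such transcripts among the 4025 at 50 CPM or more in GFP low. A high replicate 4 raises the GFP low mean that the rule uses, so the 9 of 15 follows in part from the choice of members. Without GFP low replicate 4 the rule chose 4 of the 9. ENSDART00000130608.2 was among the 9. In 7 of the other 8, the levels had similar proportions: replicate 4 was 4.29 to 7.17 times replicate 3 and 3.01 to 4.70 times replicate 5, and replicate 5 was 1.29 to 1.63 times replicate 3. Among the other 143 members, replicate 5 exceeded replicate 3 in 10. In the 7 this order is how they were picked, so it is no result about them.

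Length and the order of the bright libraries were not among the limits that picked these 7. Both are descriptions of a group picked after its values were seen, and the 150 members include it. Among all 9, 7 were at most 700 bases, and GFP high replicate 4 was the highest bright library in 6. In length, 6 of the 7 were at most 700 bases, against 16 of all 150 members, and the longest was 1792 bases. Their highest GFP high library was replicate 4 in 6 of the 7, whereas over all members replicate 4 was the highest bright library in 26 (17.3%). Within the limits the rule sets, their mean levels in GFP low ran from 66.8 to 1370 TPM and their GFP high means were 1.0% to 3.81% of their GFP low means. The one with the most reads, of 657 bases, stood at 149, 907 and 243 CPM in GFP low replicates 3 to 5 and at 9.33, 10.03, 12.2 and 16.9 CPM in GFP high replicates 1 to 4. Another, of 667 bases, stood at 136, 897 and 215 CPM and at 8.46, 8.29, 14.5 and 15.95 CPM in the same order. Their shared order of the dim libraries follows from how the 7 were picked, and neither overlapped between the groups. Estimated counts were whole in every library only for the one of 1792 bases. Reads of the 6 shorter ones were therefore in part shared out between transcripts. Whether the likeness of these 6 comes from shared reads was not tested. The 7 were grouped after their values were seen and have no test as a group. Without GFP low replicate 4 the rule still chose 4 of them. Leaving all 9 aside, the members' share of counts was 2.80%, 3.00% and 1.78% in GFP low replicates 3 to 5, so replicates 3 and 4 then lay closer together and replicate 5 remained lowest.

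**Figure D4:**
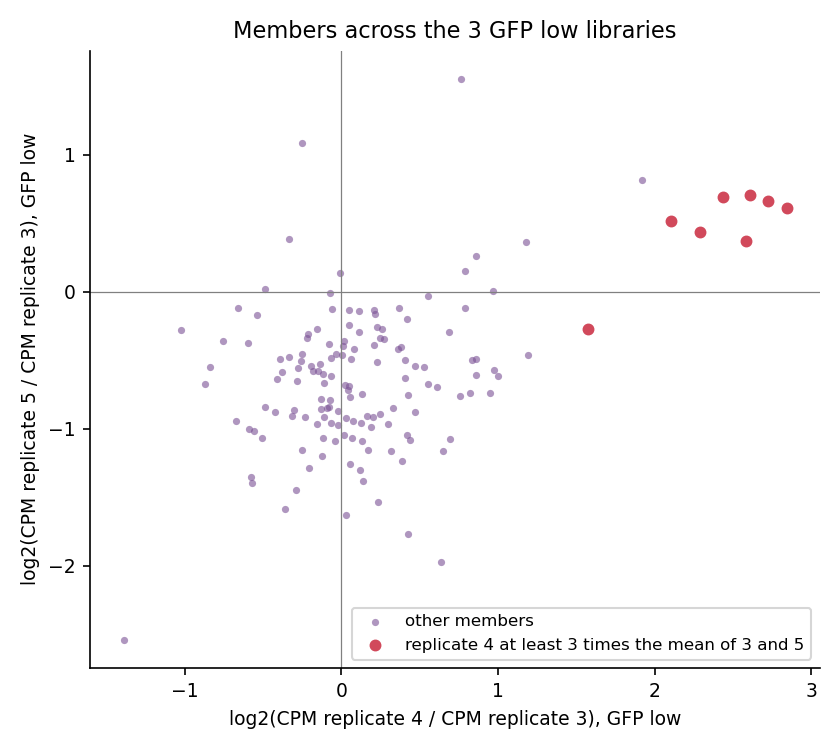
Each point is 1 member: log2 of the CPM ratio of GFP low replicate 4 to replicate 3 (horizontal) and of replicate 5 to replicate 3 (vertical). Most members lie below the horizontal zero line, where replicate 5 is the lower. The 8 red members have replicate 4 at 3 times or more the mean of the other two libraries, and 7 of them lie close together at the upper right. That corner follows from the 3-times limit and from picking the 7 with replicate 5 above replicate 3. ENSDART00000130608.2, at 0 CPM in replicate 5, is not drawn.

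The level left in the bright cells differed widely between members. The GFP high mean was 0.0552% to 12.5% of the GFP low mean, with a median of 5.44% and quartiles of 2.84% and 8.62%, where the rule allows no more than 12.5%. Below 1% lay 9 members, from 1% to 5% 58, from 5% to 10% 66, and above 10% 17. The exact 95% Poisson interval of the pooled, rounded GFP high count lay wholly above the median share for 64 members and wholly below it for 67. It covers counting error only, not amplification or the spread between libraries. A count was found in all 4 bright libraries for 137 members, in 3 for 8, in 2 for 4 and in 1 for 1. The summed GFP high count had a median of 491 and was under 100 for 14 members.

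The bright libraries held the members at slightly different levels. The median member stood at 5.05%, 6.04%, 4.45% and 5.07% of its mean GFP low level in GFP high replicates 1 to 4, a mean of 5.15% ± 0.658 (SD, n = 4). Replicate 2 was the highest bright library in 67 members (44.7%), against 22.6% of all tested transcripts and 33.6% of those at 50 CPM or more in GFP low. Replicate 3 was the lowest in 64 members (42.7%), against 18.2% and 20.05%. The mirror set, which marks the bright cells, was highest in replicate 2 in 28.8% of its transcripts and lowest in replicate 3 in 18.6%. The members' coefficient of variation over the bright libraries had a median of 34.9%, against 22.4% in all tested transcripts. It was 9.83% in tested transcripts at 50 CPM or more in GFP low. In the mirror set, which is far more abundant in the bright libraries, it was 10.3%. For comparison, the median transcript of the mirror set kept 8.15%, 4.93% and 4.55% of its bright level in GFP low replicates 3 to 5.

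Members that were high in one library were in general high in the others. Across the 150 members, Spearman's rho of TPM was 0.896 to 0.939 between GFP low libraries, 0.815 to 0.925 between GFP high libraries and 0.621 to 0.801 when a dim was set against a bright library. These are descriptions across transcripts, which are not independent, and transcript length enters every TPM value.

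At the median, the members were longer than the tested transcripts as a whole. They were shorter than those at 50 CPM or more in GFP low, a set that includes them and was not matched to them in level. The members' lengths ran from 391 to 20569 bases, with a median of 2134 bases. The median was 1901 over all tested transcripts, 2909 over those at 50 CPM or more in GFP low and 2103 in the mirror set. At most 1000 bases were found in 29 members (19.3%) and in 22.8% of all tested transcripts. The share was 6.21% of tested transcripts at 50 CPM or more in GFP low and 8.47% of the mirror set. Over 5000 bases were found in 17 members (11.3%) and in 8.91% of all tested transcripts. That share was 20.6% of those at 50 CPM or more in GFP low and 3.39% of the mirror set. The 29 short members had a median of 350 TPM in GFP low and 19.2 TPM in GFP high, and kept a median of 4.27% of their dim level in the bright cells. The 121 longer members had medians of 70.1 TPM, 3.16 TPM and 5.66%. The 50 CPM minimum admits a short transcript only at a high TPM, so the TPM difference follows in part from the rule. In CPM, the GFP low medians were 124.5 for the short and 92.9 for the longer members. With TPM in place of CPM in the rule, 123 transcripts were chosen and 102 of the 150 members were among them. Estimated counts were whole in every library (within 1e-06), the form they take when no reads are shared out between transcripts, for 39 members (26.0%) and for 23.2% of tested transcripts at 50 CPM or more in GFP low. For the other 111 members the levels depend in part on how the quantifier divided reads between similar transcripts.

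**Figure D5:**
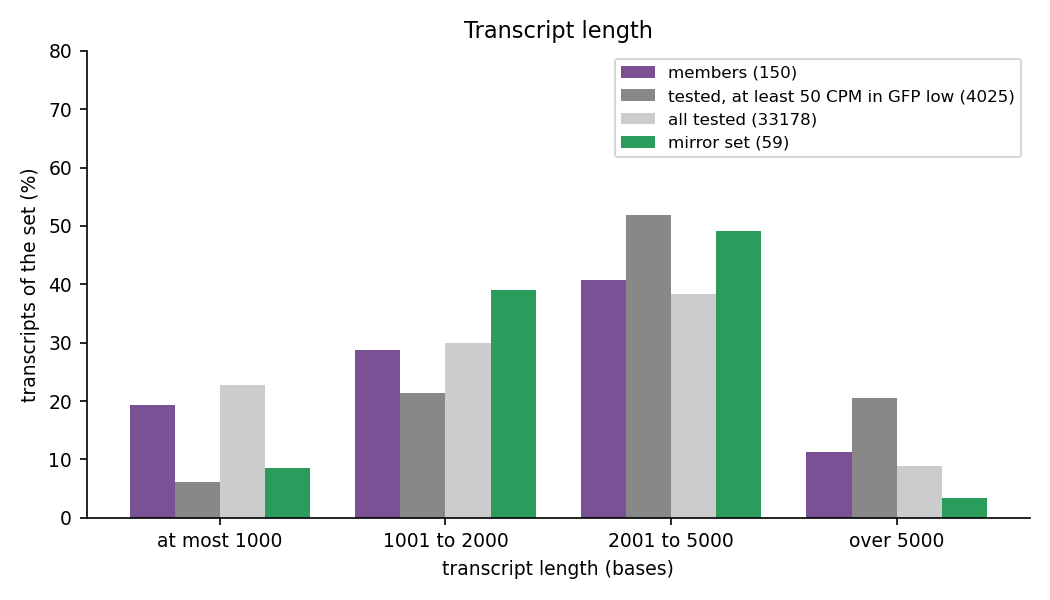
Share of transcripts (%) in 4 classes of transcript length (bases) for the 150 members, the 4025 tested transcripts at 50 CPM or more in GFP low, all 33178 tested transcripts and the 59 transcripts of the mirror set. At most 1000 bases are 19.3% of members, 22.8% of all tested transcripts and 6.21% of those at 50 CPM or more in GFP low.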

How the data were processed

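The 7 libraries were grouped by title. The estimated counts and TPM values are the authors' own, deposited per library with length and effective length; the tools kallisto and sleuth and the build danRer10 come from the submitters' processing notes, without versions or options. kallisto divides reads that match several transcripts, so estimates of isoforms and near-identical transcripts are uncertain.

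CPM was computed as estimated count over the library's total. The members and lists were chosen with earlier results of these data known. Counts were rounded and tested with edgeR 4.0.16 (R 4.3.3): TMM, filterByExpr at its defaults, robust quasi-likelihood fit, Benjamini-Hochberg adjustment over all tested transcripts. Of the 3 members named by identifier, 2 follow the rule set for naming: the one with the highest GFP low CPM and the one with the highest ratio among the rest. ENSDART00000130608.2 was added after its values were seen. The planned gene-based naming and marker lists could not be applied without gene names. Alternatives were DESeq2 1.42.0, limma 3.58.1 on log2-transformed TPM with a pseudocount of 1 or 0.1, other scalings, filters and thresholds of the rule, a replicate block, and leaving out each library.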

Additional observations from a re-analysis of the deposited data

Results flagged for a closer look

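One value among those reported stood far from the others of its group. In GFP high replicate 3, ENSDART00000098822.4 reached 0.138 CPM on an estimated count that rounds to 3. It had 0 counts after rounding in the other bright libraries. With 3 libraries at 0, any count in the fourth stands apart in this way. The level is close to the 0.117 to 0.149 CPM that a count of 0 allows in the GFP high libraries. No difference between the bright libraries is therefore shown. In groups of 4 without such ties, chance sets 1 library this far apart in about 1 in 20. Over all members, 6 of 150 (4.0%) had a bright library this far from the others, and over all tested transcripts 6.28% did. The 3 dim libraries are too few for this comparison.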

How the results depend on the processing

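The number of members followed the thresholds: 226 at a fold of at least 4, 88 at a fold of at least 16, 315 at a minimum of 20 CPM, 70 at 100 CPM, and 80 when each GFP low library had to meet the rule on its own, an alternative chosen after the data were seen, as was library size alone as the scaling. It was 137 with TMM-scaled CPM, 151 with group medians, and 127 to 179 when each library was left out. With the replicate block 2135 transcripts and 138 members passed 5% FDR, in place of 7223 and 149. The groups have replicate numbers 3 and 4 in common. Only libraries with these numbers inform the group difference in the block fit, so its counts rest on fewer libraries than the main fit. Over the 33178 tested transcripts, deviations from the group means were not correlated within a number (r = 0.02 and 0.022). No pairing of the libraries is shown over these transcripts as a whole, and smaller groups of transcripts were not tested for it. Leaving out each library gave 5326 to 6649 transcripts and 144 to 149 members past 5% FDR, and the other alternatives kept both counts within 1.5 times. Leaving out or reading in single libraries moved the members' share of counts in GFP low between 1.93% and 3.11%, and the median level in GFP high between 4.09% and 9.45% of that in GFP low. The highest is the value read in GFP low replicate 5 when it was left out of the choice. For ENSDART00000130608.2 the log2 fold change ran from -7.02 without GFP low replicate 4 to 5.15 without GFP high replicate 2, and lay below 0 with limma, at -0.72 and -2.11 with adjusted p of 0.882 and 0.66. DESeq2 gave it no p. No other member changed direction in any of these fits. Depth limits what can be seen below 0.117 to 0.282 CPM.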
